A study of Mus musculus with 9 samples.

Results

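Ribosome biogenesis factors are the nucleolar and nuclear proteins that transcribe, modify, cut and fold ribosomal RNA and assemble it with ribosomal proteins. A set of 57 such genes was chosen by symbol from general knowledge of the pathway, and all 57 had a row among the 49585 genes of the count table. They fall into 8 small nucleolar ribonucleoprotein (snoRNP) genes, 22 genes of the small subunit, 18 of the large subunit, 5 of RNA polymerase I and 4 multifunctional nucleolar genes. Their mRNA levels were followed in 9 RNA-seq libraries, 3 replicates of each of 3 populations sorted from cultured mouse haematopoietic stem cells (HSCs). The question behind the sort was how cells of different surface phenotype in an expansion culture differ in gene expression.

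All cells came from wild-type C57BL/6 bone marrow, were sorted as CD34-CD150+ KSL cells (lineage-negative, c-Kit and Sca-1 positive), and shared one culture medium. It was F12 with polyvinyl alcohol (PVA, 0.1%) in place of serum albumin, insulin-transferrin-selenium, thrombopoietin at 100 ng/ml and stem cell factor at 10 ng/ml. The labels give the culture as 10 days in one place and as one week in another. After culture the cells were sorted as CD201+CD150+CD48-KSL, CD201+CD150+CD48+KSL or CD201-KSL, here called CD201+CD48-, CD201+CD48+ and CD201- cells. The sample titles of the CD201- group also carry CD150+ and CD48+, and the labels give neither the ages of the mice nor how many were pooled. Each sample held over 5000 cells, and nothing in the labels says that replicates came from separate mice or cultures, so p-values measure the spread between these samples.

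As background, RNA polymerase I makes a long precursor of ribosomal RNA in the nucleolus. Box C/D and box H/ACA snoRNPs methylate and pseudouridylate it, the small subunit processome cuts and folds its first part, and a separate set of helicases, GTPases and scaffold proteins matures the large subunit. HSCs are known for low rates of protein synthesis, and ribosome production rises in cells that grow and divide.

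Total counts ran from 3810123 to 7072885 per library, and from 13663 to 17845 genes were detected. After a filter on low counts 11619 genes were tested, all 57 biogenesis genes among them, each with at least 70 counts in every library. Counts were converted to CPM, a gene's share of its library scaled to a fixed total, on TMM-scaled library sizes. CPM are shares of a library and do not show RNA per cell. No pair of replicates agreed within counting noise: the chi-square per degree of freedom of their counts ran from 1.36 to 13.4. CD201- replicate 3 stood apart, with the fewest genes detected, a TMM factor of 0.876 against 0.961 and 0.962 in the other CD201- libraries, and a score of 55.3 against 39.5 and 39.7 on the first principal component. The mRNA of CD201 itself (Procr) was measured at 63.2 ± 3.74, 26.5 ± 2.16 and 3.56 ± 1.07 CPM (mean ± SD, n = 3) in CD201+CD48-, CD201+CD48+ and CD201- cells, lowest in the cells sorted as CD201-.

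The biogenesis genes were lowest in CD201+CD48- cells, intermediate in CD201+CD48+ cells and highest in CD201- cells. Set against CD201- cells, CD201+CD48- cells had lower levels of 52 of 57 and higher levels of 0 at an adjusted p under 0.05 (quasi-likelihood F test of edgeR, Benjamini-Hochberg adjustment over all genes tested), where 23.9% of all genes tested were lower and 24.2% higher. Scaled by library size alone, 46 of the 57 were lower, against 14.5% of all genes lower and 34.2% higher. The median log2 fold change of the 57 genes was -0.71, with a range from -1.08 to 0.08, and that of all genes tested was 0.003. The 4 genes that differed by more than 2-fold were Nhp2, Nolc1, Ncl and Noc2l. They are 7.02% of the set, where 2.19% of all genes were called lower by 2-fold or more. In bulk samples, fewer cells of a high-expressing type and less of these mRNAs per cell cannot be told apart.

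CD201+CD48+ cells, set against CD201- cells, had lower levels of 43 of the 57 and higher levels of 0, against 14.3% and 14.8% of all genes tested (30, 7.32% and 23.2% scaled by library size alone). Their median was -0.40, with a range from -0.75 to -0.0039. Within the CD201+ cells, 20 were lower in CD201+CD48- cells and 0 were higher, against 6.31% and 9.05% of all genes. Here the median was -0.25 and the range ran from -0.48 to 0.08. The last count varied with the libraries in the fit. It was 39 without CD201- replicate 3, also 39 when the CD201- libraries were left out of the fit, and from 8 to 11 when 1 CD201+ library was left out. The share of all genes called lower moved with it, to 14.7%, 13.6% and 3.10% to 4.23% in the same settings. Without CD201- replicate 1 the count was 22, and without CD201- replicate 2 also 22, with 6.68% and 6.60% of all genes lower. Over the 18 alternative settings of the closing section, 5 of the 20 calls were kept in every one (Nhp2, Utp20, Heatr1, Gnl3 and Ddx18) and 15 were lost in 1 to 11. Of the 52 calls of the first comparison 6 were lost in 1 to 4 settings, and of the 43 of the second 17 were lost in 1 to 11. These comparisons share samples, so their counts are not independent of each other.

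**Figure D1:**
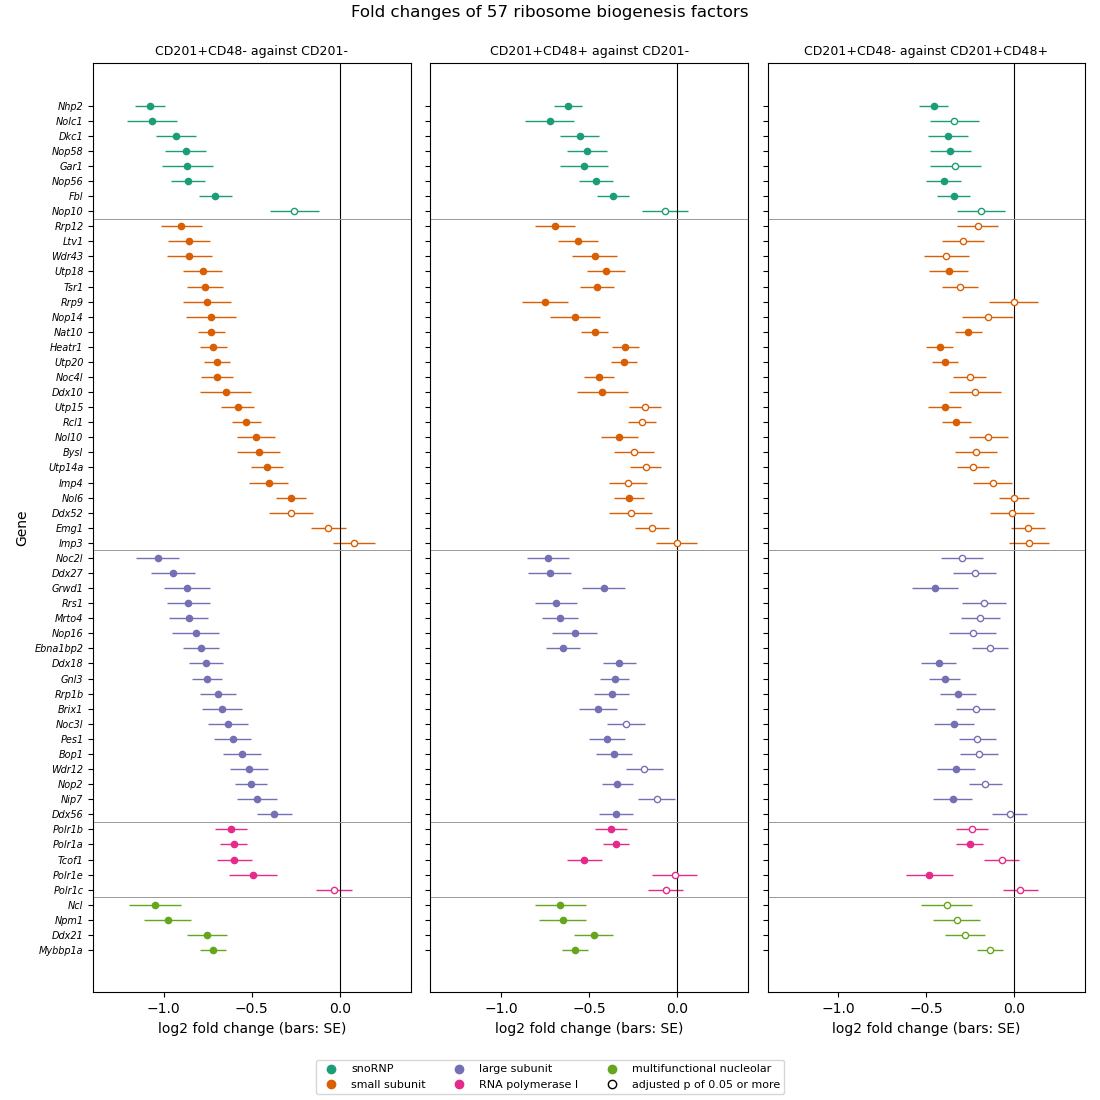
Log2 fold changes (x axis) of the 57 biogenesis genes (y axis, by role and ordered by the first comparison) in the 3 comparisons, with standard errors; filled points passed an adjusted p of 0.05. In the first panel 52 points are filled, all to the left of 0, and the whole set spans -1.08 to 0.08.

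The means of the 3 groups rose from CD201+CD48- over CD201+CD48+ to CD201- cells for 53 of the 57 genes (93.0%), and for 32.1% of all genes tested. None of the 57 fell in that order. Of the 57, 14 (24.6%) were lower in all 3 comparisons, where 2.91% of all genes were. In the first comparison all CD201+CD48- libraries lay below all CD201- libraries for the same 52 genes that passed, and for 27.2% of all genes. In the comparison of CD201+CD48+ with CD201- cells the libraries were separated in this way for 46 of 57 genes (20.3% of all genes), and between the CD201+ populations for 38 (19.7% of all genes).

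**Figure D2:**
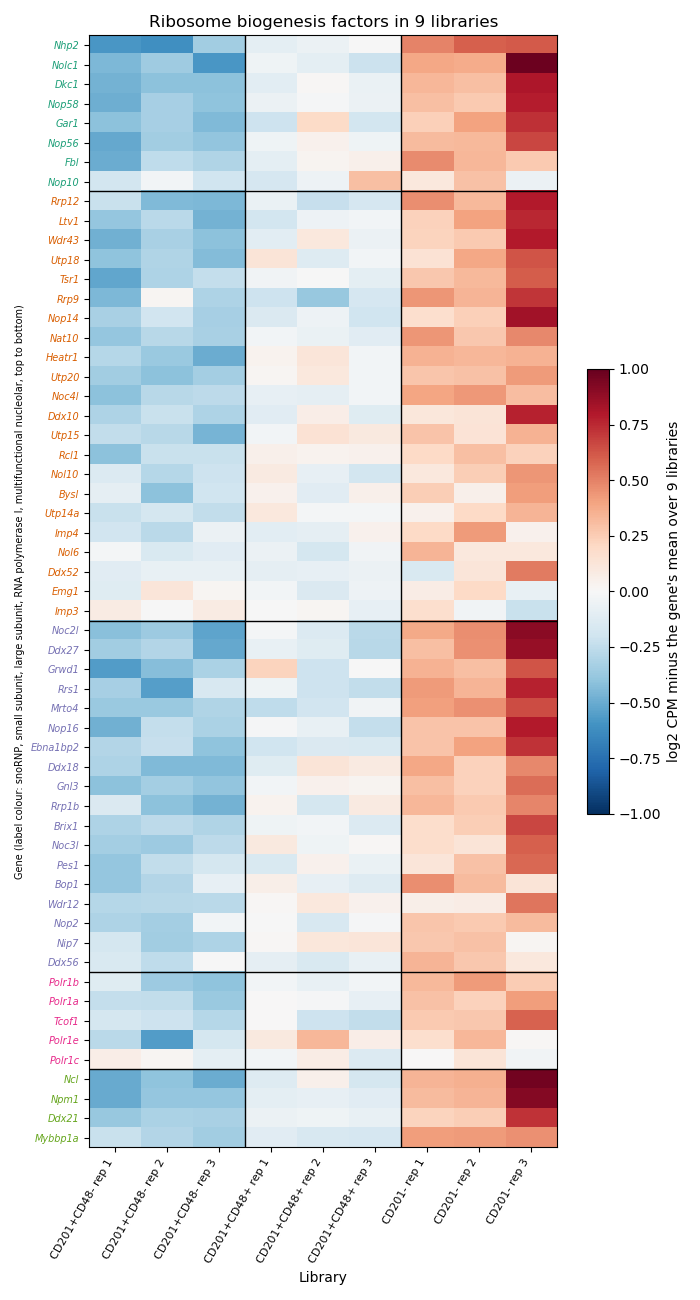
Level of each biogenesis gene (rows, by role) in each library (columns), as log2 CPM minus the gene's mean over the 9 libraries; blue is below and red above that mean. CD201+CD48- libraries are mostly blue, CD201- libraries mostly red, and CD201- replicate 3 holds the highest value of 43 of the 57 genes.

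Summed over the 57 genes, the level was 10067 to 10529 CPM in CD201+CD48- libraries and 12298 to 13176 CPM in CD201+CD48+ libraries. It was 16502, 16686 and 22770 CPM in CD201- replicates 1, 2 and 3. As a share of counts, these genes took 1.06% to 1.09%, 1.26% to 1.33% and 1.58% to 1.99% of a library in that order of populations. The groups did not overlap, and most of the spread lay in CD201- cells. The median coefficient of variation over replicates was 12.9% there, 5.77% in CD201+CD48- cells and 5.44% in CD201+CD48+ cells. CD201- replicate 3 exceeded the mean of the other CD201- libraries by a median of 0.29 on the log2 scale over the 57 genes and lay above it for 43 of them, while the median over all genes tested was 0.006. Without that library the counts of lower genes were 53, 44 and 39 in the 3 comparisons, with medians of -0.65, -0.32 and -0.26. The shares of all genes called lower were then 26.4%, 18.1% and 14.7%, against 23.9%, 14.3% and 6.31% with all libraries.

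**Figure D3:**
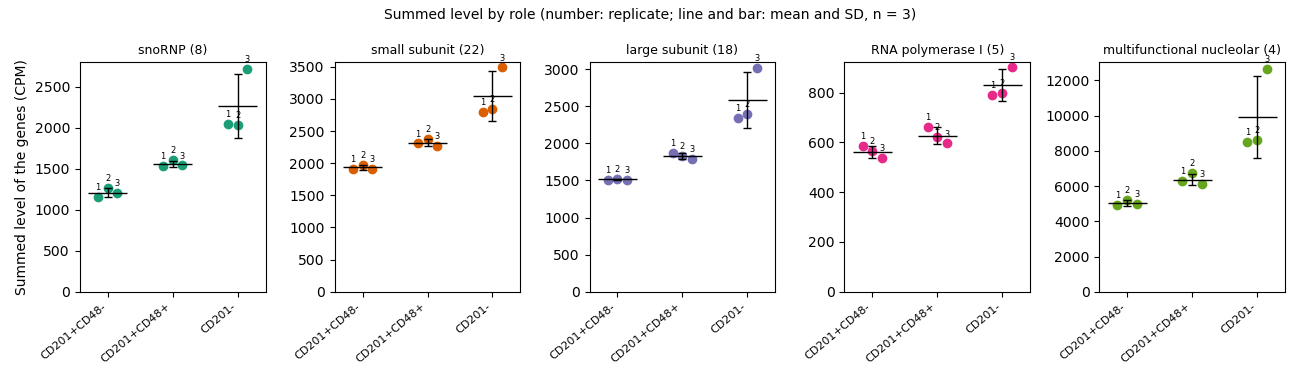
Summed CPM (y axis, from 0) of the genes of each role in each library, by population (x axis); small numbers are replicates, lines and bars the mean and SD of 3. In each role the CD201+CD48- libraries are lowest and the CD201- libraries highest, with CD201- replicate 3 on top; the 8 snoRNP genes ran from 1154 to 2718 CPM.

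The start sites of these genes offer a feature that their choice did not use. Promoter windows of 300 bases (250 before and 50 after the annotated start, RefSeq on GRCm38.p6) were found for 50 of the 57, and were searched for the E-box CACGTG, a palindrome that reads the same on both strands and is the textbook site of Myc and other factors with a basic helix-loop-helix domain. It was present for 10 of the 50 (20%), for 11.99% of 8936 tested genes with an entry, and in 7.15% of 32851 windows of all genes. By role these were 6 of 20 small subunit, 3 of 16 large subunit, 1 of 3 multifunctional, 0 of 7 snoRNP and 0 of 4 RNA polymerase I genes. In 7 of the 10 the motif lay in the 50 bases after the annotated start on which the window was built, against 13.9% of 2589 such motifs in all windows. The 10 sites are shown as 30 bases each on the strand of the gene, 5′ to 3′, with the motif in capitals, so that their surroundings can be compared.
Imp4: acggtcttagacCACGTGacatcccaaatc
Nop2: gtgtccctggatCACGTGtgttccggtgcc
Grwd1: aagggccggagtcgCACGTGtgaaaccgga
Ltv1: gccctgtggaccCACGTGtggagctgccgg
Utp20: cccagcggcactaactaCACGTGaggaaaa
Pes1: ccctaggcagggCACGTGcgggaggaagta
Mybbp1a: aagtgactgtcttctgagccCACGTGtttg
Tsr1: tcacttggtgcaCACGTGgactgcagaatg
Utp18: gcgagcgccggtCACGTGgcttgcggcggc
Wdr43: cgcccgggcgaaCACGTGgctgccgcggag

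Their positions on GRCm38.p6 were Imp4 at chr1:34439696-34439725 on the plus strand, Nop2 at chr6:125131811-125131840 on the plus strand and Utp18 at chr11:93885769-93885798 on the minus strand, where the motif began 121, 60 and 20 bases before the start. After the start lay Grwd1 at chr7:45830740-45830769 on the minus strand, Ltv1 at chr10:13193092-13193121 on the minus strand, Utp20 at chr10:88826765-88826794 on the minus strand and Pes1 at chr11:3963965-3963994 on the plus strand. The others after the start were Mybbp1a at chr11:72441347-72441376 on the plus strand, Tsr1 at chr11:74898092-74898121 on the plus strand and Wdr43 at chr17:71616220-71616249 on the plus strand. For Grwd1 and Wdr43 the start of the promoter entry lay inside the gene rather than at its end. The genes span chr7:45825223-45830994 and chr17:71616178-71659031. All 10 genes belonged to those with a lower level in the first comparison, with log2 fold changes from -0.87 (Grwd1) to -0.40 (Imp4) and a median of -0.74. The 40 genes with a window and no motif had a median of -0.70, and 35 of them were lower. A match of letters is a description, not a bound site.

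Of the 8 snoRNP genes, CD201+CD48- cells had 7 at a lower level than CD201- cells (median -0.87), CD201+CD48+ cells also had 7 (median -0.52), and 5 were lower in CD201+CD48- against CD201+CD48+ cells (median -0.35). Box H/ACA particles, which convert uridine to pseudouridine, consist of Dkc1, Nhp2, Nop10 and Gar1. Nhp2, encoded at chr11:51619773-51623718, was measured at 77.7, 75.8 and 91.4 CPM in CD201+CD48- cells, 109, 112 and 116 in CD201+CD48+ cells and 164, 176 and 178 in CD201- cells. It had the smallest p of the 57 genes in the first comparison, with no overlap between any of the 3 populations. Its log2 fold change was -1.08 ± 0.08 (edgeR adjusted p = 6.45e-08) in the first comparison, -0.62 ± 0.08 (edgeR adjusted p = 4.09e-05) for CD201+CD48+ against CD201- cells, and -0.46 ± 0.08 (edgeR adjusted p = 0.00152) within the CD201+ cells. Dkc1, the pseudouridine synthase dyskerin, stood at 159, 167 and 167 CPM in CD201+CD48- cells, 206, 223 and 211 in CD201+CD48+ cells and 279, 273 and 387 in CD201- cells. The populations did not overlap, and the log2 fold change was -0.93 ± 0.11 (edgeR adjusted p = 8.81e-06) in the first comparison. Gar1, a further core protein of the particle, had levels of 24.9, 26.3 and 24.4 CPM in CD201+CD48- cells, 28.7, 37.8 and 29.2 in CD201+CD48+ cells and 39.0, 43.7 and 54.8 in CD201- cells. Its CD201+ populations did not overlap either, but that difference did not pass, at -0.34 ± 0.15 (edgeR adjusted p = 0.143), while the first comparison gave -0.87 ± 0.14 (edgeR adjusted p = 0.00015).

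Nop10, the smallest protein of the particle, was measured at 30.2, 33.6 and 29.9 CPM in CD201+CD48- cells, 30.6, 33.1 and 42.2 in CD201+CD48+ cells and 37.0, 42.0 and 32.9 in CD201- cells. Its populations overlapped and none of its comparisons passed, with log2 fold changes of -0.26 ± 0.14 (edgeR adjusted p = 0.134), -0.07 ± 0.13 (edgeR adjusted p = 0.728) and -0.19 ± 0.13 (edgeR adjusted p = 0.392). Dkc1, Nhp2 and Gar1 were thus lower while Nop10, of the same particle, did not pass, and whether Nop10 differs from its partners was not tested.

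Box C/D particles methylate ribose and hold Fbl, the methyltransferase fibrillarin, with the scaffold proteins Nop56 and Nop58. Fbl stood at 50.1, 59.4 and 57.3 CPM in CD201+CD48- cells, 65.9, 72.0 and 73.0 in CD201+CD48+ cells and 98.0, 88.6 and 84.8 in CD201- cells. Nop56 reached 285, 319.6 and 309 CPM in CD201+CD48- cells, 393, 418 and 395 in CD201+CD48+ cells and 505, 508 and 645 in CD201- cells. Nop58 came to 301, 337 and 320.2 CPM in CD201+CD48- cells, 406, 419.7 and 407 in CD201+CD48+ cells and 522, 507 and 728 in CD201- cells. None of the 3 genes showed overlap between any of the populations. Their log2 fold changes between CD201+CD48- and CD201- cells were -0.71 ± 0.09 (edgeR adjusted p = 1.73e-05) for Fbl, -0.86 ± 0.10 (edgeR adjusted p = 3.69e-06) for Nop56 and -0.88 ± 0.12 (edgeR adjusted p = 2.12e-05) for Nop58. Within the CD201+ cells they were -0.34 ± 0.09 (edgeR adjusted p = 0.0198), -0.40 ± 0.10 (edgeR adjusted p = 0.0101) and -0.36 ± 0.12 (edgeR adjusted p = 0.046). The last of these calls was lost in 10 of 18 alternative settings, that of Fbl in 5 and that of Nop56 in 1. Nolc1, a chaperone of snoRNPs at chr19:46075847-46085543, had 226, 242 and 206 CPM in CD201+CD48- cells, 299.8, 288 and 267 in CD201+CD48+ cells and 402, 399 and 609 in CD201- cells. CD201- replicate 3 was the highest of its libraries, and the first comparison gave -1.07 ± 0.14 (edgeR adjusted p = 3.37e-05). The annotated snoRNA genes inside Nop56, Nop58, Ncl, Gnl3, Wdr43 and Tsr1 had 0 counts in every library.

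Among the 22 small subunit genes the lower ones numbered 19 in the first comparison (median -0.67), 14 in CD201+CD48+ against CD201- cells (median -0.32) and 6 within the CD201+ cells (median -0.23). The 5 with the smallest p in the first comparison were Nat10, Utp20, Heatr1, Rrp12 and Noc4l. Nat10, which acetylates cytidines of the small subunit RNA, stood at 105, 114 and 110.0 CPM in CD201+CD48- cells, 135, 131 and 127 in CD201+CD48+ cells and 187, 166 and 192 in CD201- cells. Utp20, a large helical-repeat protein of the processome, had 199, 192 and 201 CPM in CD201+CD48- cells, 257, 273 and 249 in CD201+CD48+ cells and 308, 312 and 342 in CD201- cells. Heatr1, whose yeast counterpart binds the nascent transcript, was at 186, 175 and 161 CPM in CD201+CD48- cells, 232, 247 and 223 in CD201+CD48+ cells and 288, 285 and 288 in CD201- cells. For each of these 3 genes the populations were separate, with CD201+CD48+ cells in between. Their log2 fold changes were -0.73 ± 0.08 (edgeR adjusted p = 1.86e-06), -0.70 ± 0.07 (edgeR adjusted p = 2.14e-06) and -0.72 ± 0.08 (edgeR adjusted p = 2.15e-06) in the first comparison and -0.26 ± 0.08 (edgeR adjusted p = 0.0316), -0.40 ± 0.07 (edgeR adjusted p = 0.00197) and -0.42 ± 0.08 (edgeR adjusted p = 0.00145) between the CD201+ populations. The call between the CD201+ populations was lost in 8 of 18 settings for Nat10 and in 0 for Utp20 and Heatr1.

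Rrp12, a repeat protein that in yeast acts in export of pre-ribosomes, was measured at 55.1, 47.5 and 47.2 CPM in CD201+CD48- cells, 61.5, 54.8 and 57.4 in CD201+CD48+ cells and 88.8, 80.7 and 111 in CD201- cells. Noc4l, a partner of Nop14, was at 35.0, 38.4 and 38.7 CPM in CD201+CD48- cells, 43.9, 43.7 and 45.7 in CD201+CD48+ cells and 61.1, 62.6 and 57.6 in CD201- cells. Both separated CD201- from CD201+ cells, and between the CD201+ populations Rrp12 overlapped. The log2 fold changes against CD201- cells were -0.90 ± 0.12 (edgeR adjusted p = 1.4e-05) and -0.70 ± 0.09 (edgeR adjusted p = 1.66e-05) for CD201+CD48- cells, and -0.69 ± 0.11 (edgeR adjusted p = 0.000309) and -0.44 ± 0.09 (edgeR adjusted p = 0.00155) for CD201+CD48+ cells. Neither passed between the CD201+ populations, with -0.21 ± 0.12 (edgeR adjusted p = 0.269) and -0.25 ± 0.09 (edgeR adjusted p = 0.0767).

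The other lower small subunit genes had log2 fold changes (± SE) from -0.86 ± 0.12 to -0.28 ± 0.09 in the first comparison. Ltv1, Tsr1 and Bysl, which act late in subunit maturation, had -0.86 ± 0.12, -0.77 ± 0.10 and -0.46 ± 0.12. The processome subunits Wdr43, Utp18, Utp15 and Utp14a had -0.86 ± 0.13, -0.78 ± 0.11, -0.58 ± 0.10 and -0.41 ± 0.09. Rrp9, Nop14, Ddx10, Nol10, Imp4, Rcl1 and Nol6, also early factors, had -0.76 ± 0.14, -0.73 ± 0.14, -0.65 ± 0.15, -0.48 ± 0.11, -0.40 ± 0.11, -0.53 ± 0.08 and -0.28 ± 0.09. The first-comparison call was lost in 4 of 18 settings for Nol6 and in 1 each for Bysl and Imp4. Calls in the other comparisons were unequal among them. Rrp9, a protein of the snoRNP that guides early cleavage, gave -0.75 ± 0.13 (edgeR adjusted p = 0.000645) for CD201+CD48+ against CD201- cells and -0.0054 ± 0.14 (edgeR adjusted p = 0.985) between the CD201+ populations. Utp15 gave -0.18 ± 0.09 (edgeR adjusted p = 0.142) and -0.40 ± 0.09 (edgeR adjusted p = 0.00977) in the same comparisons, and Rcl1 gave -0.20 ± 0.08 (edgeR adjusted p = 0.0722) and -0.33 ± 0.08 (edgeR adjusted p = 0.0125). The difference between these genes was not itself tested.

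The 3 remaining small subunit genes, Ddx52, Emg1 and Imp3, did not pass in the first comparison. Ddx52, a helicase, stood at 79.6, 81.9 and 81.5 CPM in CD201+CD48- cells, 81.0, 81.5 and 82.4 in CD201+CD48+ cells and 77.2, 93.6 and 123 in CD201- cells. Emg1, a methyltransferase of a pseudouridine in the small subunit RNA, was at 52.3, 61.9 and 57.8 CPM in CD201+CD48- cells, 55.9, 51.6 and 54.9 in CD201+CD48+ cells and 59.8, 65.4 and 54.1 in CD201- cells. Imp3, a partner of Imp4 in the processome, was at 29.5, 27.8 and 29.4 CPM in CD201+CD48- cells, 27.7, 28.2 and 26.3 in CD201+CD48+ cells and 31.2, 27.1 and 23.9 in CD201- cells. Their populations overlapped, and the highest library for Ddx52 was CD201- replicate 3. Their log2 fold changes were -0.28 ± 0.13 (edgeR adjusted p = 0.0843), -0.07 ± 0.10 (edgeR adjusted p = 0.611) and 0.08 ± 0.12 (edgeR adjusted p = 0.612).

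In the first comparison all 18 large subunit genes were lower in CD201+CD48- cells (median -0.72), with 15 lower in CD201+CD48+ against CD201- cells (median -0.39) and 7 lower within the CD201+ cells (median -0.23). The 5 smallest p belonged to Gnl3, Noc2l, Mrto4, Ebna1bp2 and Ddx18. Gnl3, the nucleolar GTPase nucleostemin, was measured at 135, 141 and 137 CPM in CD201+CD48- cells, 176, 185 and 183 in CD201+CD48+ cells and 221, 210.2 and 265 in CD201- cells. Ddx18, a helicase, stood at 51.9, 47.2 and 47.4 CPM in CD201+CD48- cells, 59.1, 70.3 and 68.5 in CD201+CD48+ cells and 83.9, 75.3 and 89.6 in CD201- cells. For both, all 3 populations were separate, with log2 fold changes of -0.75 ± 0.09 (edgeR adjusted p = 4.25e-06) and -0.76 ± 0.10 (edgeR adjusted p = 1.48e-05) in the first comparison and -0.40 ± 0.09 (edgeR adjusted p = 0.00512) and -0.43 ± 0.10 (edgeR adjusted p = 0.00738) between the CD201+ populations. Noc2l, whose yeast counterpart accompanies the early large subunit inside the nucleus, lies at chr4:156234655-156247616 and had 254, 263 and 234 CPM in CD201+CD48- cells, 335, 309 and 280.3 in CD201+CD48+ cells and 439.8, 467 and 632 in CD201- cells. CD201- replicate 3 was its highest library, and the first comparison gave -1.03 ± 0.12 (edgeR adjusted p = 7.38e-06).

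Mrto4, which holds the place of the stalk protein on the precursor, was at 27.5, 27.5 and 29.0 CPM in CD201+CD48- cells, 29.9, 31.2 and 34.8 in CD201+CD48+ cells and 47.4, 49.1 and 56.1 in CD201- cells. Ebna1bp2, a scaffold protein, was at 90.4, 94.5 and 83.9 CPM in CD201+CD48- cells, 96.4, 100.0 and 99.6 in CD201+CD48+ cells and 135, 146 and 183 in CD201- cells. In both genes the CD201- libraries lay above all others, and the CD201+ populations lay close together without overlap. The log2 fold changes against CD201- cells were -0.86 ± 0.11 (edgeR adjusted p = 1.14e-05) and -0.79 ± 0.10 (edgeR adjusted p = 1.27e-05) for CD201+CD48- cells and -0.67 ± 0.10 (edgeR adjusted p = 0.000216) and -0.65 ± 0.10 (edgeR adjusted p = 0.000173) for CD201+CD48+ cells. Between the CD201+ populations they were -0.19 ± 0.11 (edgeR adjusted p = 0.274) and -0.14 ± 0.10 (edgeR adjusted p = 0.405).

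The members of the PeBoW complex, Pes1, Bop1 and Wdr12, which is needed for processing of the large subunit precursor, had log2 fold changes of -0.61 ± 0.11, -0.56 ± 0.11 and -0.52 ± 0.11 in the first comparison. The helicases Ddx27 and Ddx56 had -0.95 ± 0.12 and -0.37 ± 0.10. Nop2, a cytosine methyltransferase of the large subunit RNA, had -0.50 ± 0.09, and Grwd1, a chaperone of a ribosomal protein, had -0.87 ± 0.13. The remaining factors Rrs1, Nop16, Rrp1b, Brix1, Noc3l and Nip7 had -0.86 ± 0.12, -0.82 ± 0.13, -0.69 ± 0.10, -0.67 ± 0.11, -0.64 ± 0.11 and -0.47 ± 0.11. Ddx56 and Nip7 lost this call in 1 of 18 alternative settings each. Wdr12, Nip7 and Noc3l were lower within the CD201+ cells, in those without CD48 at -0.33 ± 0.11 (edgeR adjusted p = 0.0489), -0.35 ± 0.11 (edgeR adjusted p = 0.0448) and -0.34 ± 0.11 (edgeR adjusted p = 0.0491), and did not pass between CD201+CD48+ and CD201- cells. These calls within the CD201+ cells were lost in 11, 10 and 11 of 18 settings.

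Of the RNA polymerase I genes, 4 of 5 were lower in the first comparison (median -0.60), 3 in CD201+CD48+ against CD201- cells (median -0.35) and 2 between the CD201+ populations (median -0.24). Polr1a, the largest catalytic subunit, stood at 172, 171 and 157 CPM in CD201+CD48- cells, 203, 201 and 191 in CD201+CD48+ cells and 249, 238 and 271 in CD201- cells. Polr1b, the second catalytic subunit, stood at 65.1, 55.1 and 53.6 CPM in CD201+CD48- cells, 69.5, 67.3 and 69.3 in CD201+CD48+ cells and 88.3, 94.9 and 84.4 in CD201- cells. In both genes the CD201- libraries lay above the others without overlap and the CD201+ populations were also apart. The first comparison gave -0.60 ± 0.08 (edgeR adjusted p = 1.17e-05) and -0.62 ± 0.09 (edgeR adjusted p = 5.28e-05). Tcof1, the nucleolar protein treacle that acts in transcription by RNA polymerase I, was at 282, 277 and 262 CPM in CD201+CD48- cells, 320.0, 276 and 268 in CD201+CD48+ cells and 382, 384 and 479 in CD201- cells. Its CD201+ populations overlapped, and against CD201- cells its log2 fold changes were -0.60 ± 0.10 (edgeR adjusted p = 0.000134) and -0.53 ± 0.10 (edgeR adjusted p = 0.000991).

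Polr1e, a subunit of the dimer that takes part in initiation, had 21.5, 17.7 and 23.0 CPM in CD201+CD48- cells. It had 27.8, 32.7 and 27.2 CPM in CD201+CD48+ cells and 29.2, 32.7 and 26.3 in CD201- cells. Its means rose in the usual order, but those of CD201+CD48+ and CD201- cells were close, at 29.3 and 29.4 CPM. CD201+CD48- cells lay below both other populations, which overlapped. Its log2 fold changes were -0.50 ± 0.14 (edgeR adjusted p = 0.00731) against CD201- cells and -0.48 ± 0.13 (edgeR adjusted p = 0.0221) against CD201+CD48+ cells, with -0.01 ± 0.13 (edgeR adjusted p = 0.95) for CD201+CD48+ against CD201- cells. The first of these calls was lost in 1 of 18 settings and the second in 4. Polr1c, a subunit that RNA polymerase I shares with RNA polymerase III, was at 45.4, 44.0 and 40.5 CPM in CD201+CD48- cells, 42.5, 45.5 and 39.3 in CD201+CD48+ cells and 43.4, 47.3 and 42.3 in CD201- cells. Its populations overlapped in every comparison, with log2 fold changes of -0.03 ± 0.10 (edgeR adjusted p = 0.812), -0.07 ± 0.10 (edgeR adjusted p = 0.65) and 0.03 ± 0.10 (edgeR adjusted p = 0.87).

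The 4 multifunctional nucleolar genes were lower in each CD201+ population when set against CD201- cells, with medians of -0.87 and -0.61, and 0 of 4 passed between the CD201+ populations (median -0.30). Ncl, nucleolin, an RNA binding protein of the nucleolus at chr1:86344719-86359455, was measured at 2706, 2897 and 2709.6 CPM in CD201+CD48- cells, 3507, 3962 and 3387 in CD201+CD48+ cells and 4849, 4886 and 7472 in CD201- cells. Npm1, nucleophosmin, a chaperone that shapes the nucleolus, had 1330.5, 1443 and 1438 CPM in CD201+CD48- cells, 1760.1, 1786 and 1742 in CD201+CD48+ cells and 2342, 2384 and 3559.9 in CD201- cells. Ddx21, a helicase of polymerase I transcription and RNA processing, had 417, 433 and 433 CPM in CD201+CD48- cells, 519.9, 525 and 513 in CD201+CD48+ cells and 630.1, 641 and 891 in CD201- cells. In these 3 genes the populations did not overlap, and CD201- replicate 3 lay far above the other CD201- libraries. Mybbp1a, a nucleolar protein that binds transcription factors, had 450.2, 429 and 414 CPM in CD201+CD48- cells, 487, 470.2 and 469 in CD201+CD48+ cells and 704, 707 and 721 in CD201- cells. Its populations did not overlap either, and its CD201- libraries were close together. The log2 fold changes between CD201+CD48- and CD201- cells were -1.05 ± 0.15 (edgeR adjusted p = 3.26e-05) for Ncl, -0.98 ± 0.13 (edgeR adjusted p = 2.88e-05) for Npm1, -0.75 ± 0.11 (edgeR adjusted p = 5.6e-05) for Ddx21 and -0.72 ± 0.07 (edgeR adjusted p = 1.31e-06) for Mybbp1a. Within the CD201+ cells they were -0.38 ± 0.14 (edgeR adjusted p = 0.09), -0.33 ± 0.13 (edgeR adjusted p = 0.116), -0.28 ± 0.11 (edgeR adjusted p = 0.108) and -0.14 ± 0.07 (edgeR adjusted p = 0.227). The first 3 of these passed in 3 of 18 alternative settings each. The labels do not say how reads shared by Npm1 and its processed pseudogenes were counted. An annotated neighbour overlaps 23 of the 57 genes, and whether the counting used strand is not stated.

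Genes of the same pathway outside the set were followed as lists. The small subunit list also holds Neurl4 and the large subunit list Mrm1, which are not known as nucleolar biogenesis factors and are included in the counts. In the first comparison 40 of 45 other large subunit genes, 28 of 39 other small subunit genes, 9 of 11 other snoRNP and assembly genes, 12 of 15 pre-rRNA exonuclease genes and 5 of 12 other RNA polymerase I genes were lower, and 0 were higher, where 23.9% of all genes were lower. Scaled by library size alone, the lower counts were 26, 20, 7, 8 and 2, with 1 gene higher in each of the large subunit, snoRNP and RNA polymerase I lists. Under that scaling 14.5% of all genes were lower and 34.2% higher. With TMM scaling the medians of the lists were -0.49, -0.46, -0.52, -0.53 and -0.34. In CD201+CD48+ against CD201- cells the lower counts were 25, 15, 4, 5 and 4, against 14.3% of all genes. Within the CD201+ cells they were 4 of 45, 5 of 39, 2 of 11, 2 of 15 and 1 of 12 in the same order, against 6.31% of all genes, so that the shares of the large subunit (8.89%) and RNA polymerase I (8.33%) lists lay near that of all genes. The 3 smallest p of each list belonged to the following genes, given as log2 fold changes ± SE in the first comparison. Ppan, Rsl1d1 and Nol9 of the large subunit had -0.73 ± 0.08, -0.65 ± 0.08 and -0.57 ± 0.07. Wdr46, Lyar and Nop9 of the small subunit had -0.99 ± 0.11, -1.32 ± 0.14 and -0.79 ± 0.11. Ruvbl2 and Ruvbl1, helicases that assemble snoRNPs, had -0.98 ± 0.09 and -0.52 ± 0.10, and the assembly factor Naf1 had -0.70 ± 0.11. The exosome subunits Exosc8 and Exosc3 and the nuclease Dis3 had -0.78 ± 0.10, -0.99 ± 0.15 and -0.72 ± 0.10. Ubtf, the upstream binding factor of polymerase I, had -0.52 ± 0.08, and the shared subunits Polr2e and Polr1d had -0.59 ± 0.10 and -0.37 ± 0.08.

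Positive values that did not pass were those of Taf1b (0.15 ± 0.10, edgeR adjusted p = 0.238), Pih1d1 (0.13 ± 0.11, edgeR adjusted p = 0.343) and Gltscr2 (0.11 ± 0.08, edgeR adjusted p = 0.28), which encodes Nop53. Of 12 tested non-coding host genes of snoRNAs, 4 were lower and 0 higher in the first comparison. This is 33.3% of the list, against 23.9% of all genes. All CD201+CD48- libraries lay below all CD201- libraries for 25% of the list and 27.2% of all genes. Scaled by library size alone, 2 were lower, against 14.5% of all genes. Snhg5 had -1.17 ± 0.08 (edgeR adjusted p = 2.91e-08), Gas5 -0.40 ± 0.07 (edgeR adjusted p = 0.000431) and Snhg15 -0.40 ± 0.13 (edgeR adjusted p = 0.017), while Snhg20 had 0.71 ± 0.51 (edgeR adjusted p = 0.297) and Snhg6 0.02 ± 0.19 (edgeR adjusted p = 0.955). The precursor of ribosomal RNA was not measured: of the ribosomal RNA symbols looked for, the 5S gene Rn5s alone had a row, with 0 counts in every library.

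The genes of the ribosomal proteins themselves had medians closer to 0. Of 82 tested genes of cytosolic ribosomal proteins, 23 were lower in the first comparison (median -0.16), 15 in CD201+CD48+ against CD201- cells (median -0.13) and 0 within the CD201+ cells (median -0.01), with 0 higher in any comparison. The first 2 counts are 28.0% and 18.3% of the list, near the 23.9% and 14.3% of all genes tested. Scaled by library size alone, which moved the median of all genes up by 0.17 on the log2 scale, the first median was 0.01 with 10 lower and 1 higher, while that of the biogenesis genes stayed below 0 at -0.54 with 46 lower. Under that scaling 14.5% of all genes were lower and 34.2% higher. With TMM scaling the medians of the biogenesis genes were -0.71, -0.40 and -0.25 in the 3 comparisons. Genes of S phase were lower beside the biogenesis genes, in 25, 18 and 21 of 26 in the 3 comparisons, with medians of -0.77, -0.31 and -0.45. Genes of G2 and M phase were lower in 22, 4 and 21 of 25, with 1 higher between CD201+CD48+ and CD201- cells, and had medians of -0.58, -0.13 and -0.45. All genes were lower in 23.9%, 14.3% and 6.31%. Scaled by library size alone, between CD201+CD48+ and CD201- cells 9 S phase genes were lower, and 1 of G2 and M phase was lower and 3 were higher. Of all genes, 7.32% were lower and 23.2% higher in that setting. Between CD201+CD48+ and CD201- cells the median of the biogenesis genes thus exceeded that of both cycle lists in size, and between the CD201+ populations both cycle lists exceeded that of the biogenesis genes. These differences between lists were not tested, and neither was the part of the cell cycle in the levels of the biogenesis genes.

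**Figure D4:**
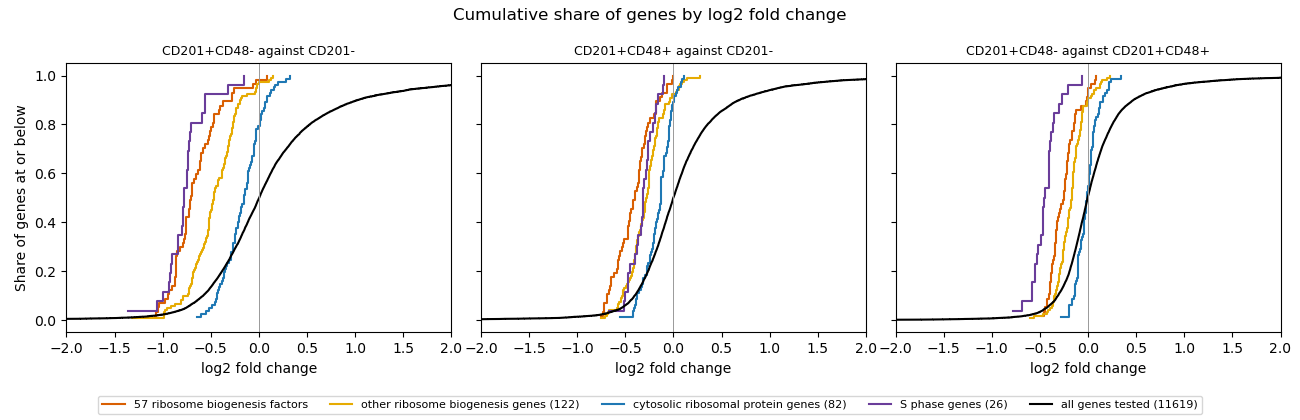
Cumulative share (y axis) of genes at or below a log2 fold change (x axis) for the 57 biogenesis genes, 122 other listed biogenesis genes (Neurl4 and Mrm1 among them), 82 ribosomal protein genes, 26 S phase genes and all 11619 genes tested, in the 3 comparisons. The curve of the biogenesis genes lies left of that of the ribosomal protein genes in each panel, with medians of -0.71 against -0.16 in the first.

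Markers of other cell types were summed per library. Between the populations the sums of the megakaryocyte, erythroid, mast cell and HSC lists did not overlap, those of the lymphoid list all overlapped, and those of the granulocyte list overlapped between CD201+CD48+ and CD201- cells. The summed level of 15 megakaryocyte and platelet markers was 1960 to 2099.7 CPM in CD201+CD48-, 573 to 611 in CD201+CD48+ and 822 to 1006 in CD201- libraries. Of 14 erythroid markers, with Hba-a1 and Car1 at 0 counts in every library, the sum ran over 652 to 698, 584 to 631 and 510.2 to 539 CPM. Of 14 granulocyte and monocyte markers, with Ly86 and S100a9 at 0 counts throughout, the sums were 218 to 232, 194 to 215 and 163 to 198 CPM, while of its 7 tested genes 3 were lower and 1 higher in the first comparison (median log2 fold change -0.08). Of 10 mast cell and basophil markers, with Cma1 and Tpsb2 at 0, they were 5.09 to 10.1, 3.44 to 4.72 and 35.9 to 44.3 CPM. Of 14 lymphoid markers, with Cd3e and Rag2 at 0, they were 12.1 to 13.6, 12.9 to 16.2 and 10.7 to 22.6 CPM. The 12 HSC markers summed to 2596 to 2679, 2003 to 2068 and 1543 to 1595 CPM. In the first comparison 11 of 14 tested megakaryocyte genes were higher and 1 lower, and 3 of 4 tested erythroid genes were higher and 1 lower. Of 11 tested HSC genes 8 were higher and 2 lower, and 2 of 2 tested mast cell genes were lower. Of all genes 23.9% were lower and 24.2% higher. The mast cell sums held just 23 to 40 counts in CD201+ libraries, and the HSC list holds genes of the sort markers, Procr among them. The part of these cell types in the levels of the biogenesis genes was not tested.

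Myc, a transcription factor known to drive ribosome biogenesis genes, was measured at 102, 107 and 108 CPM in CD201+CD48- cells, 169, 158 and 172 in CD201+CD48+ cells, and 230.0, 232 and 156 in CD201- cells. Its log2 fold changes were -0.96 ± 0.12 (edgeR adjusted p = 1.95e-05), -0.31 ± 0.12 (adjusted p = 0.067) and -0.66 ± 0.12 (adjusted p = 0.00227) in the 3 comparisons. CD201- replicate 3, the library with the highest biogenesis levels, was the lowest of its group for Myc. Whether the level of Myc bears on those of the biogenesis genes was not tested.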

How the data were processed

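Total RNA of over 5000 sorted cells per sample was read as SMARTer cDNA libraries in paired reads of 36 nt on a NextSeq 500, per the labels' protocols. The deposited table of raw counts holds whole-number counts of 49585 gene symbols, and the authors did not normalize it. A second table deposited by the authors holds a normalized signal, the counts divided by 1 size factor per sample, and served an alternative test alone. The submitters' processing notes name mm10 and DESeq2 without a version; aligner, counter, annotation and strand setting are unknown here. 3 columns of per-sample values matched no label and were left unused.

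Genes were kept by filterByExpr (minimum count 10) and scaled by TMM factors. Counts of all 9 samples entered one quasi-likelihood fit with group as the factor (edgeR 4.0.16, robust, R 4.3.3), and p-values were adjusted by Benjamini-Hochberg over 11619 genes. A standard error is the size of the log2 fold change over the root of its F value. The common biological coefficient of variation was 8.64%. On data simulated from these libraries (11619 genes), 67 genes per comparison were changed 1.5-fold and 67 were changed 2-fold. The test recovered 49.3%, 65.7% and 59.7% of the 1.5-fold genes, in the order of the report, and 86.6%, 85.1% and 95.5% of the 2-fold genes. Far fewer genes were changed there than were called in the real data. Recovery where many genes change was not tested. Alternatives used DESeq2 1.42.0, limma 3.58.1 (log2 of the deposited signal plus 1), other scalings and filters, a replicate block and each sample left out.

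Roles came from general knowledge. Values in every sample are given for all snoRNP, RNA polymerase I and multifunctional genes, the 5 smallest p of each subunit class in the first comparison, and genes that did not pass there. Of other pathway lists, the 3 smallest p and any positive values are named. The members and lists were chosen with earlier results of these data known. Symbols matched RefSeq on GRCm38.p6, the build the mm10 label names, for all 57 genes. Python 3.11.15 and matplotlib 3.10.9 drew the figures.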

Additional observations from a re-analysis of the deposited data

How the results depend on the processing

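Each of 171 log2 fold changes of the 57 genes was recomputed in 18 alternative settings, 9 of which left out 1 library. In the first comparison the count of lower genes ran from 46 to 53, in CD201+CD48+ against CD201- cells from 30 to 45, and between the CD201+ populations from 8 to 39, with 0 higher in any setting. The shares of all genes called lower ran from 14.5% to 26.4%, from 7.32% to 18.1% and from 3.10% to 14.7%. The lowest of the first 2 counts came from scaling by library size alone, which moved the median of all genes by 0.17, 0.13 and 0.03 in the 3 comparisons and the medians of the biogenesis genes to -0.54, -0.27 and -0.22. Under that scaling all genes split into 1685 lower and 3974 higher in the first comparison (2778 and 2807 as reported) and into 851 and 2701 in the second (1661 and 1723 as reported). Upper quartile factors gave 1185 and 2161 in the second. Between the CD201+ populations the count of 20 became 12 with DESeq2, 13 with a replicate block and 39 with those populations alone in the fit. The share of all genes lower was 5.01%, 4.90% and 13.6% in these settings, against 6.31% as reported. Leaving out 1 library gave 8 to 39 lower biogenesis genes, with medians from -0.29 to -0.26. The share of all genes lower was then 3.10% to 14.7%. Deviations from the group means correlated at -0.11 to 0.04 between same-numbered libraries and at -0.07 to 0.10 between the others. With groups of 3 whose deviations sum to 0, this cannot show whether replicate numbers pair the samples, and the labels do not say. The replicate block gave 52 and 41 in the other comparisons, with 22.7% and 12.7% of all genes lower. On depth, the lowest count of any of the 57 genes in a library was 70; how recovery varies with level was not tested.

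A change of sign occurred in 52 of 3078 recomputed values, 0 of them of a called difference, and the cause was not tested.
In CD201+CD48- against CD201- cells, Emg1 had 0.10 with library size, 0.0042 with upper quartile and -0.14 to 0.00103 when 1 library was left out. Imp3 had -0.011 to 0.18 when 1 library was left out. Polr1c had 0.14 with library size, 0.038 with upper quartile and -0.073 to 0.014 when 1 library was left out. In CD201+CD48+ against CD201- cells, Imp3 had 0.13 with library size, 0.062 with upper quartile, 0.00999 with a stricter filter, 0.0072 with 2 groups in the fit, 0.00102 with the replicate block and -0.092 to 0.097 when 1 library was left out. Nip7 had 0.013 with library size. Nop10 had 0.061 with library size and -0.23 to 0.024 when 1 library was left out. Polr1c had 0.066 with library size and 0.00068 with upper quartile. Polr1e had 0.12 with library size, 0.053 with upper quartile, 0.00055 with a stricter filter and -0.092 to 0.0699 when 1 library was left out. Between the CD201+ populations, Ddx52 had 0.024 with library size and -0.0205 to 6.6e-05 when 1 library was left out. Ddx56 had 0.0096 with library size and -0.093 to 0.024 when 1 library was left out. Nol6 had 0.0011 with DESeq2, 0.0036 with RLE factors, 0.032 with library size, 0.00039 with a stricter filter, 0.00093 with limma and -0.0503 to 0.023 when 1 library was left out. Polr1c had -0.025 to 0.078 when 1 library was left out. Rrp9 had 0.0065 with DESeq2, 0.0026 with RLE factors, 0.031 with library size, 0.0011 with the replicate block, 0.00799 with limma and -0.14 to 0.10 when 1 library was left out. Tcof1 had -0.13 to 0.0062 when 1 library was left out.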
